A study of Mus musculus with 21 samples.

Results

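Messenger RNA levels of cell cycle genes, read apart by the phase in which they act, were followed in mouse embryonic stem cells and in the embryoid bodies they form. The set holds 41 genes chosen by name, and 40 of them had a probe set that the platform annotation assigns to them alone: 11 G1 and G1/S genes, 11 replication genes and 18 G2/M and mitosis genes, among 18194 genes in all. Ccnb1 (cyclin B1) was not analysed here, since the annotation lists no probe set by that symbol. Each gene was read by its brightest probe set, out of 90 probe sets for the 40 members, and the other probe sets of 27 members served as a check. The cells are CGR8, 1 mouse embryonic stem cell line, so the replicates share a genotype. At day 0 they were undifferentiated and kept in the medium labelled 10% GMEM. The other 6 groups are embryoid bodies, aggregates started as hanging drops (500 cells in 25 µL) and shaken from day 2 on, in the medium labelled 20% IMDM, collected at days 2, 3 and 5 either without further treatment (control) or with 100 µM ascorbic acid. Each of the 7 groups has 3 arrays, which the labels call biological replicates. The submitters took forward only cultures that went on to beat more often with ascorbic acid, so the arrays are selected. The comparisons ask how the cell cycle genes move along the days of aggregation and whether ascorbic acid shifts them. Day 0 and day 2 differ in medium, aggregation and time at once, and these cannot be told apart.

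The cell cycle is driven by cyclin-dependent kinases that are switched on by cyclins: D cyclins with Cdk4 and Cdk6, and E cyclins with Cdk2, carry cells from G1 into S phase, and A and B cyclins with Cdk1 carry them through G2 into mitosis. E2F factors, held back by the retinoblastoma family, turn on G1/S and replication genes, and B-Myb and FoxM1 with the MuvB core turn on mitotic genes through a promoter element called the cell cycle genes homology region (CHR), often beside CCAAT boxes. Embryonic stem cells are known for a short G1, low D cyclins and high cyclin E activity, and G1 is known to lengthen as they differentiate.

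RefSeq promoters (GRCm38.p6, from 250 bases before to 50 bases after the first listed transcript start) were matched by symbol for 32 of the 40 members, leaving Ccna2, Ccnd1, Ccnd2, Ccne2, Gmnn, Mcm4, Aurkb and Cdc25c unmatched. They were searched on both strands for an E2F element (TTTCCCGC, TTTCGCGC, TTTGCCGC or TTTGGCGC), for the CHR (TTTGAA or TTCGAA) and for the CCAAT box (CCAAT). The letters of the E2F element stood in 6 of 9 replication promoters (66.7%), 2 of 8 G1 and G1/S promoters (25.0%) and 1 of 15 mitotic promoters (6.67%), against 2.32% of all 27025 promoters of the table. The CHR letters stood in 12 of 15 mitotic promoters (80.0%), 2 of 9 replication promoters (22.2%) and 0 of 8 G1 and G1/S promoters, against 19.4% of all promoters. A CCAAT box stood in 13 of 15 mitotic (86.7%), 7 of 9 replication (77.8%) and 3 of 8 G1 and G1/S promoters (37.5%), against 37.9% of all. All 12 mitotic promoters with a CHR also had a CCAAT box, a pairing found in 7.7% of all promoters. Matches of different motifs shared a base in 1 case among the members. A match is a run of letters in this window, not a shown binding site.

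The promoters of 5 members whose levels are described below show these elements. Mcm5, Mki67 and Aurka were taken by the size of their change from day 0 to day 5, among called members with a promoter match. The shown promoters thus hold a match by this choice, and Ccne1, which changed more, had none. Cdc6 and Ccnb2, which were among the members called higher with ascorbic acid in the paired fit below, were added after their values were seen. Cdt1 was also chosen by size, but its E2F letters begin at base 33 after the start, outside the printed stretch. Each line runs 5′ to 3′ on the gene's strand from 170 bases before to 30 after the start, with the matched letters in capitals. The stretches lie at chr8:75109339-75109538 (plus strand) for Mcm5, chr11:98907981-98908180 (plus strand) for Cdc6, chr7:135716350-135716549 (minus strand) for Mki67, chr2:172370541-172370740 (minus strand) for Aurka and chr9:70421525-70421724 (minus strand) for Ccnb2.
Mcm5: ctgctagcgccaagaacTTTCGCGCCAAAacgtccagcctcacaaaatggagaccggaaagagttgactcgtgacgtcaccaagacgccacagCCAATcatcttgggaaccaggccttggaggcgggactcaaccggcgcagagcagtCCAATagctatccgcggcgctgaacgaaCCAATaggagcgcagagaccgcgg
Cdc6: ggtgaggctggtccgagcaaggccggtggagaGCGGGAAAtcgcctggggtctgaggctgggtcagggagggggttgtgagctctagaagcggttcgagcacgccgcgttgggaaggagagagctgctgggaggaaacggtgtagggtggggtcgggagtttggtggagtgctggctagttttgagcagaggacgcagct
Mki67: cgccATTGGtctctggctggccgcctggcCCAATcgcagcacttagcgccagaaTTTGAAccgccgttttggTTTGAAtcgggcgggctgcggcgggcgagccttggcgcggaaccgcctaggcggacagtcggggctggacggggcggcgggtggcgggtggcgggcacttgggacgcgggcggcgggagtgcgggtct
Aurka: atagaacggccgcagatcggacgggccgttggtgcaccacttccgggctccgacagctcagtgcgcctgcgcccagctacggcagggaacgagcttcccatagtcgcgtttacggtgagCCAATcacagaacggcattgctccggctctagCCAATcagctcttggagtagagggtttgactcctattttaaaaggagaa
Ccnb2: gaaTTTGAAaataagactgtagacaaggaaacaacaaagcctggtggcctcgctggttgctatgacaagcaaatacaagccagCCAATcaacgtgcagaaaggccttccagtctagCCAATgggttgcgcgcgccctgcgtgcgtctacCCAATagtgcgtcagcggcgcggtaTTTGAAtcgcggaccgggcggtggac
In Mcm5 the first capitals are 2 E2F matches on opposite strands that overlap, beginning at -153 and -149, and the other capitals are CCAAT boxes. Cdc6, the loader of the replicative helicase, has 1 E2F match at -138. Mki67, the gene of the proliferation marker Ki-67, has CHR matches at -116 and -98 behind CCAAT boxes in both orientations. Aurka, a spindle kinase gene, shows 2 CCAAT boxes here and has a CHR match at base 33, beyond the stretch. Ccnb2, the cyclin B2 gene, has 3 CCAAT boxes spaced 33 and 33 bases apart and a CHR match at base 5 after the start, with another at -167.

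Array medians lay between 6.05 and 6.19 on the log2 scale, no 2 arrays were identical, and correlations within groups were 0.972 to 0.995. Day 0 replicate 1 stood apart, with r of 0.974 and 0.972 to the other day 0 arrays against 0.989 between those. The 3' minus 5' difference of the Actb control probe sets was 0.79 to 0.87 at day 0 and 0.94 to 1.40 on the day 2 control arrays. The stem cell label held: the mean level of 8 pluripotency markers was 10.7 to 11.6 on the day 0 arrays, and 8 of 8 fell by day 5 without ascorbic acid. Aggregates are mixed cells, and in such bulk samples fewer cells of a type and less RNA per cell cannot be told apart.

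A member was called changed at an adjusted p under 0.05 in limma, with the Benjamini-Hochberg adjustment taken across all 18194 genes. In the control arm, 2 of 40 rose and 6 fell between days 0 and 2, against 4.8% and 6.99% of all genes. From day 2 to day 3, 8 rose and 1 fell, against 4.86% and 0.945%. From day 3 to day 5, 3 rose and 9 fell, against 9.08% and 9.24%. Over the whole course from day 0 to day 5, 7 rose and 10 fell, against 15.9% and 14%. In the aggregates with ascorbic acid, 5 rose and 4 fell from day 0 to day 2 (7.42% and 6.27% of all genes), 5 rose and 1 fell from day 2 to day 3 (3.41% and 1.29%), and 4 rose and 9 fell from day 3 to day 5 (9.21% and 8.92%). The direction thus changed from step to step: mostly higher into day 3 and mostly lower into day 5. The calls among all genes were mostly higher into day 3 too, so that direction of the calls is not particular to the members. The median difference at that step was 0.21 over the members and -0.03 over all genes in the control arm. With ascorbic acid the medians were 0.085 and 0. With arrays centred on their medians, fewer members were called lower into day 5. There, 3 rose and 5 fell in the control arm, and 4 rose and 5 fell with ascorbic acid. The share of all genes called in that refit is not given, so these counts show no trait of the members.

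**Figure D1:**
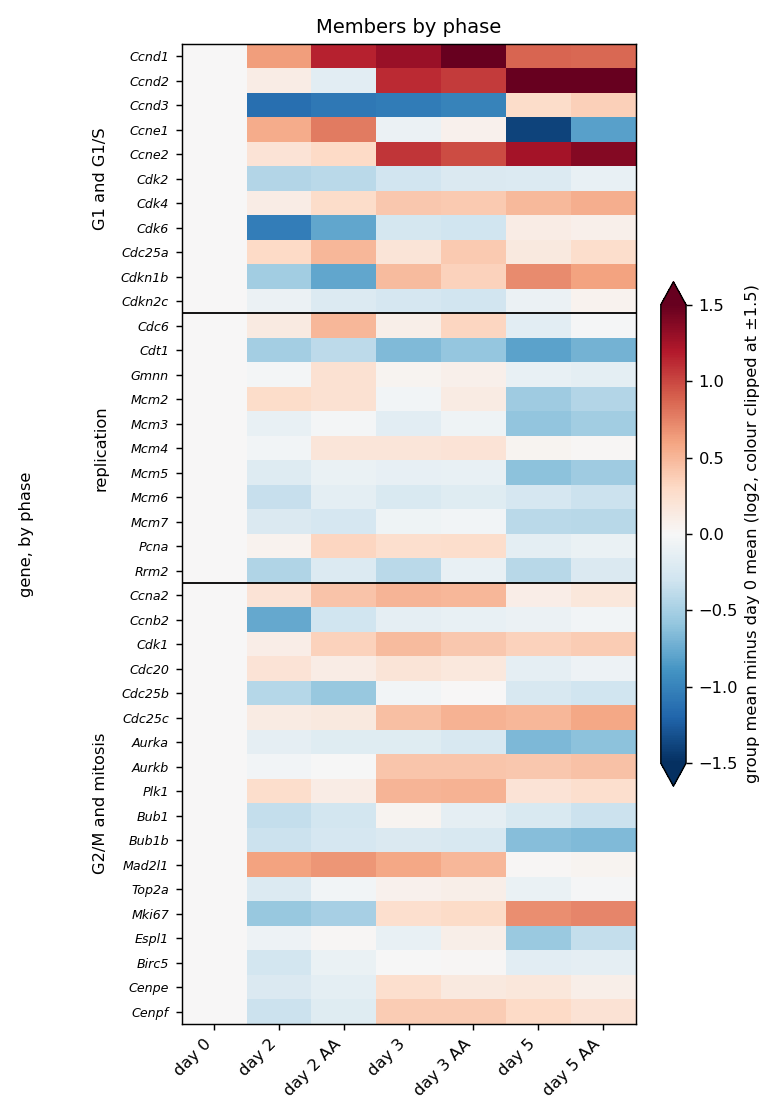
Colour gives the difference of each group mean from the day 0 mean (log2, clipped at 1.5 in both directions) for 40 members, in rows by phase, in the 6 aggregate groups (AA, with ascorbic acid), with day 0 as the zero column. The D and E cyclin genes at the top have the deepest colours, Ccnd2 and Ccne1 in opposite directions at day 5, and most replication genes turn blue at day 5.

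Ccnd2, the gene of cyclin D2, rose further than any other member. It read 7.42, 6.36 and 6.85 at day 0, in replicate order, then 7.17, 6.98 and 6.80 at day 2, 8.21, 8.08 and 7.70 at day 3 and 9.71, 10.12 and 10.00 at day 5 without ascorbic acid. With ascorbic acid it read 6.84, 7.04 and 6.27 at day 2, 8.06, 8.41 and 7.32 at day 3 and 10.30, 10.42 and 10.18 at day 5. The day 3 and day 5 arrays did not overlap in either arm. The step from day 3 to day 5 was 1.95 ± 0.26 without ascorbic acid (standard error, 3 arrays a group; limma adjusted p = 2.13e-05) and 2.37 ± 0.26 with it (adjusted p = 1.93e-06), and the earlier step from day 2 to day 3 was 1.01 ± 0.26 and 1.21 ± 0.26 (adjusted p = 0.0271 and 0.0102). That earlier call was lost without day 2 control replicate 2 or 3, or day 3 control replicate 1 or 2, and with ascorbic acid without day 2 replicate 3 or day 3 replicate 1 or 2. From day 0 to day 5 the control level rose by 3.07 ± 0.26, or 8.38-fold (adjusted p = 2.85e-08). All 6 of its other probe sets were also called higher from day 3 to day 5, by 1.53 to 2.30.

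Ccnd3, the cyclin D3 gene, was low in the aggregates of days 2 and 3. Its brightest probe set read 9.24, 10.61 and 10.73 at day 0, 8.94, 9.24 and 9.0 at day 2, 9.14, 9.33 and 8.97 at day 3 and 10.15, 10.45 and 10.80 at day 5 without ascorbic acid. Day 0 replicate 1 lay within the day 2 range, so those groups overlapped, while days 3 and 5 did not. The fall to day 2 was -1.13 ± 0.27 (limma adjusted p = 0.00891) and was not called without day 0 replicate 2 or 3. With ascorbic acid it read 8.91, 9.37 and 9.08, then 9.05, 9.34 and 9.18, then 10.35, 10.81 and 10.50, the same shape. The rise from day 3 to day 5 was 1.32 ± 0.27 (adjusted p = 0.0014), and 1.36 ± 0.27 with ascorbic acid (adjusted p = 0.00108). The other probe sets of the gene are much dimmer, the brighter at a mean of 7.49, and from day 3 to day 5 they differed by -0.06 and 0.18 in the control arm and were not called, so the Ccnd3 result rests on 1 probe set.

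Ccnd1, the cyclin D1 gene, varied widely between replicates. It read 9.75, 8.84 and 8.34 at day 0, 9.84, 9.94 and 9.03 at day 2, 10.04, 10.33 and 10.45 at day 3 and 9.52, 9.52 and 10.52 at day 5 without ascorbic acid, and 10.31, 9.82 and 10.26, 10.51, 10.38 and 10.56, and 9.53, 9.65 and 10.33 on those days with it. Day 0 replicate 1 reached the day 2 and day 5 control ranges, and every day 3 array lay above it. The difference from day 0 to day 5 was 0.88 ± 0.32 (limma adjusted p = 0.043), a call lost without day 0 replicate 2 or 3 or day 5 replicate 3. From day 0 to day 2 it was 1.15 ± 0.32 with ascorbic acid (adjusted p = 0.019) and 0.63 ± 0.32 without (adjusted p = 0.236). The first of these was lost without day 0 replicate 2 or 3 or day 2 ascorbic acid replicate 1 or 3, and the direct difference between the arms at day 2 had an adjusted p of 0.716.

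**Figure D2:**
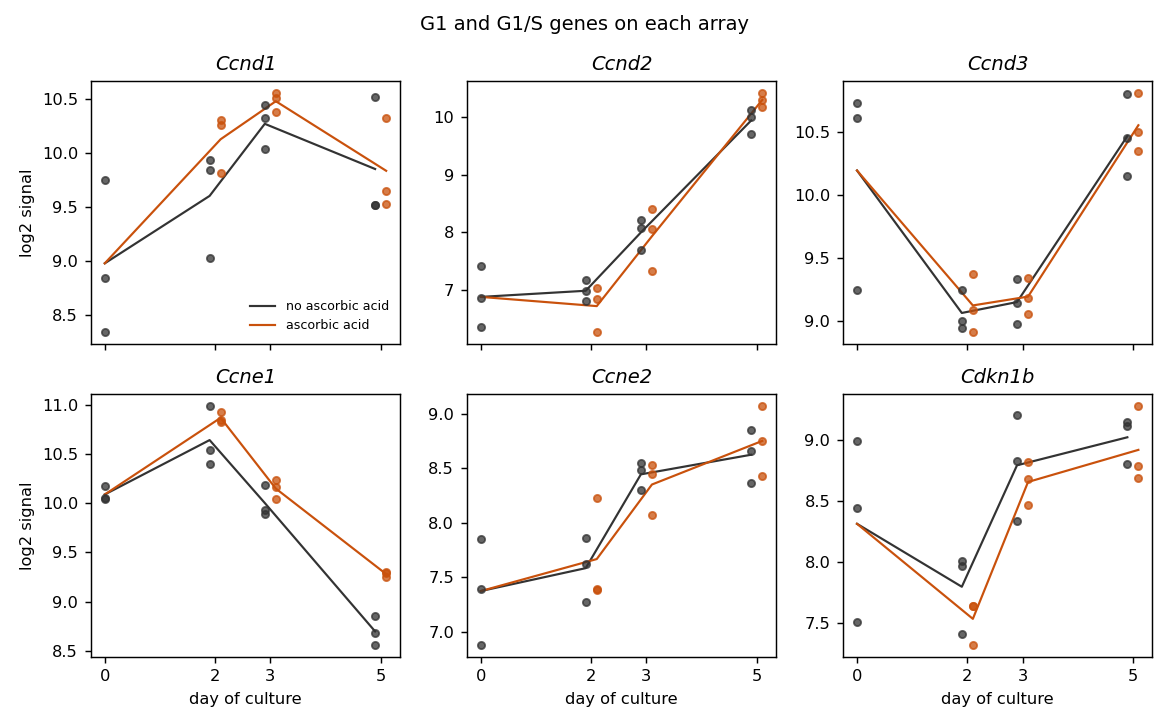
Log2 signal of 6 G1 and G1/S genes on each array (points) and group means (lines) against day of culture, without (grey) and with ascorbic acid (orange), with day 0 shared by both lines. Ccnd2 climbs to 9.71 to 10.42 at day 5, Ccnd3 dips at days 2 and 3, and Ccne1 falls below its day 0 arrays at day 5, less far with ascorbic acid.

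Ccne1, the cyclin E1 gene, first rose and then fell below its stem cell level. It read 10.18, 10.05 and 10.04 at day 0, 10.54, 10.40 and 10.99 at day 2, 9.93, 9.89 and 10.19 at day 3 and 8.56, 8.85 and 8.68 at day 5 without ascorbic acid. With ascorbic acid the arrays read 10.93, 10.83 and 10.85 at day 2, 10.17, 10.04 and 10.24 at day 3 and 9.29, 9.25 and 9.30 at day 5. Neighbouring days did not overlap in either arm from day 2 on. The control steps were 0.55 ± 0.13 to day 2, -0.64 ± 0.13 to day 3 and -1.31 ± 0.13 to day 5 (limma adjusted p = 0.00835, 0.00669 and 4.14e-07). With ascorbic acid they were 0.78 ± 0.13, -0.72 ± 0.13 and -0.87 ± 0.13 (adjusted p = 0.000545, 0.00341 and 6.7e-05). The control step to day 3 was not called without day 3 control replicate 2. The gene's other probe set, called in the same direction in each of these steps, fell by 1.52 from day 3 to day 5 in the control arm and by 1.54 with ascorbic acid.

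Ccne2, the gene of the second E cyclin, stood higher at day 5 than at day 0. It read 7.85, 7.39 and 6.88 at day 0, 7.62, 7.27 and 7.86 at day 2, 8.48, 8.30 and 8.55 at day 3 and 8.36, 8.85 and 8.66 at day 5 without ascorbic acid. Every day 3 and day 5 array lay above every earlier control array. The rise from day 0 to day 5 was 1.25 ± 0.25 (limma adjusted p = 0.000551), and Ccne1 fell by 1.39 ± 0.13 over the same interval (adjusted p = 8.57e-08). Most of the Ccne2 rise came between days 2 and 3, at 0.86 ± 0.25 (adjusted p = 0.0455), a call that was lost when any single day 2 or day 3 control array was left out.

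Among the kinases and inhibitors of G1, Cdk6 and Cdkn1b were low at day 2. Cdk6, a partner of the D cyclins, read 8.36, 7.93 and 8.25 at day 0, 7.36, 6.83 and 7.23 at day 2 and 7.80, 7.90 and 8.06 at day 3 in the control arm, without overlap of day 2 with either neighbour. It fell by 1.04 ± 0.20 and then rose by 0.78 ± 0.20 (limma adjusted p = 0.00238 and 0.0274), and the later call was lost without day 2 control replicate 2 or 3 or any 1 of the day 3 control arrays. Its other probe sets rose by 0.28 and 0.06 at that step and were not called, and the mean of all 3 gave 0.37, also not called. With ascorbic acid it fell by 0.78 ± 0.20 to day 2 (adjusted p = 0.0136), not called without day 2 replicate 2 or 3. Cdkn1b, whose product p27 inhibits cyclin E and Cdk2, read 7.51, 8.99 and 8.44 at day 0, 8.01, 7.97 and 7.41 at day 2, 8.83, 9.21 and 8.34 at day 3 and 8.80, 9.15 and 9.12 at day 5. Its day 2 and day 3 arrays did not overlap, while day 0 replicate 1 lay with day 2. It rose from day 2 to day 3 by 1.00 ± 0.28 without and 1.12 ± 0.28 with ascorbic acid (adjusted p = 0.0415 and 0.0248), where the ascorbic acid arrays went from 7.64, 7.64 and 7.32 to 8.68, 8.82 and 8.47 (and to 8.69, 9.28 and 8.79 at day 5). Its other probe set, at a mean of 6.09, differed by 0.34 in both arms and was not called, and both calls were lost with the mean of its probe sets (0.67 and 0.73). The control call was lost without any 1 of the 6 arrays compared other than day 3 control replicate 3, and the call with ascorbic acid likewise without any other than its day 3 replicate 3. Cdk4, the other kinase of the D cyclins, rose by 0.49 ± 0.13 from day 0 to day 5 (adjusted p = 0.00645), from 10.60, 10.95 and 11.30 to 11.38, 11.57 and 11.37.

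Cdc25a, the phosphatase that activates Cdk2, differed little between days. It read 9.71, 9.85 and 9.65 at day 0, 10.11, 9.97 and 10.03 at day 2, 9.88, 9.94 and 9.97 at day 3 and 9.76, 9.91 and 9.98 at day 5 without ascorbic acid. It was called in 1 comparison, from day 0 to day 2 with ascorbic acid, where the day 2 arrays read 10.33, 10.37 and 9.99 (9.99, 10.16 and 10.25 at day 3, 9.98, 10.08 and 9.95 at day 5) and the difference was 0.49 ± 0.11 (limma adjusted p = 0.00511). The same step without ascorbic acid was 0.30 ± 0.11 (adjusted p = 0.0897), and the arms differed at day 2 by 0.19 ± 0.11 (adjusted p = 0.703). Cdkn2c, the inhibitor p18 of Cdk4 and Cdk6, was called higher from day 3 to day 5 with ascorbic acid (0.34 ± 0.11, adjusted p = 0.0307), from 6.73, 6.71 and 6.55 to 6.88, 7.13 and 6.99. This call was lost without day 3 replicate 2 or 3 or day 5 replicate 2 or 3 of that arm. Over the 11 G1 and G1/S genes the median control difference from day 3 to day 5 was 0.17, against -0.03 over all genes.

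Among the 11 replication genes, Cdt1 and Rrm2 fell between days 0 and 2 in the control arm and Cdc6 rose with ascorbic acid. From day 2 to day 3, 0 of 11 passed the limma threshold in either arm, with 0 at an unadjusted p under 0.05 without and 1 with ascorbic acid, and the fit over the 6 arrays of the step alone also called none. From day 3 to day 5, Mcm2, Mcm3, Mcm5, Mcm7 and Pcna fell and 0 rose in both arms, all 11 differences were below 0, and the median was -0.24 without and -0.34 with ascorbic acid, against -0.03 and -0.02 over all genes. Of all genes, 9.24% were called lower and 9.08% higher at that step without ascorbic acid, and 8.92% and 9.21% with it. From day 2 to day 3, 5.81% of all genes were called without and 4.69% with ascorbic acid. Between days 0 and 5 in the control arm, 6 fell and 0 rose, against 14% and 15.9% of all genes. The median was -0.41, against -0.04 over all genes.

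Mcm2, Mcm3, Mcm5 and Mcm7, genes of the replicative helicase MCM, were among those that fell. Mcm5 read 11.94, 11.96 and 12.32 at day 0, 11.89, 11.86 and 11.90 at day 2, 11.89, 11.96 and 12.00 at day 3 and 11.27, 11.54 and 11.56 at day 5 in the control arm, and 11.95, 11.96 and 11.96 at day 3 against 11.44, 11.50 and 11.68 at day 5 with ascorbic acid. Every day 5 array lay below every earlier one. The step from day 3 to day 5 was -0.49 ± 0.10 without and -0.42 ± 0.10 with ascorbic acid (limma adjusted p = 0.00143 and 0.00568). Of its 2 other probe sets, 1 differed in the same direction at this step and neither was called. Mcm2 read 10.98, 11.37 and 11.43 at day 3 and 10.61, 10.92 and 10.78 at day 5 in the control arm, and 11.33, 11.33 and 11.63 against 10.66, 10.86 and 11.06 with ascorbic acid. Its steps were -0.49 ± 0.17 and -0.57 ± 0.17 (adjusted p = 0.0451 and 0.0198), with no overlap. Mcm3 differed by -0.43 ± 0.14 and -0.46 ± 0.14 (adjusted p = 0.0343 and 0.0227), its control arrays going from 11.21, 11.30 and 11.30 to 10.66, 10.88 and 10.99. Mcm7 differed by -0.34 ± 0.10 and -0.37 ± 0.10 (adjusted p = 0.0187 and 0.0115), and all 3 other probe sets of Mcm7 were called lower in both arms. Mcm4 and Mcm6, the other MCM members, were not called in any step.

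Several of these calls hung on single arrays. In the control arm, Mcm2 was lost without day 3 replicate 2 or 3 or day 5 replicate 1 or 3, Mcm3 without any 1 day 3 array or day 5 replicate 1 or 2, and Mcm7 without day 3 replicate 2 or day 5 replicate 1. With ascorbic acid, Mcm2 and Mcm3 were each lost without day 3 replicate 3 or day 5 replicate 1 or 2, and Mcm7 without day 3 replicate 1. With each array centred on its median, Mcm2 and Mcm3 of the control arm and Mcm3 with ascorbic acid were not called, while Mcm5 was called in both arms under each scaling.

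Pcna, the sliding clamp of the replicative polymerases, read 12.80, 12.99 and 13.06 at day 0, 13.07, 12.74 and 13.21 at day 2, 13.13, 13.14 and 13.35 at day 3 and 12.67, 12.83 and 12.92 at day 5 without ascorbic acid. With it the levels were 13.24, 13.19 and 13.39, then 13.08, 13.22 and 13.34, then 12.69, 12.77 and 13.08. The control arrays of days 3 and 5 did not overlap, and those with ascorbic acid did not either except at 13.08, shared by 1 array of each day. The step was -0.40 ± 0.12 without and -0.37 ± 0.12 with ascorbic acid (limma adjusted p = 0.0232 and 0.0375). The control call was lost without day 3 replicate 3 or day 5 replicate 1 or 2, the other without day 3 replicate 2 or 3 or day 5 replicate 1 or 2, and both with arrays centred on their medians.

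Cdt1, which loads the helicase together with Cdc6, was called lower at day 2 in the control arm, where no MCM member was called. It read 11.65, 12.10 and 12.14 at day 0, 11.52, 11.55 and 11.30 at day 2, 11.25, 11.41 and 11.25 at day 3 and 10.86, 11.20 and 11.41 at day 5 without ascorbic acid. All day 0 arrays lay above all later control arrays. The difference was -0.81 ± 0.14 by day 5 (limma adjusted p = 0.000104), of which -0.51 ± 0.14 was present at day 2 (adjusted p = 0.019). The day 2 call was lost without day 0 replicate 2 or 3 or day 2 control replicate 3. With ascorbic acid the Cdt1 step to day 2 was -0.39 and was not called. Among the MCM members Mcm6 differed by -0.35 at the control step to day 2, and the difference between genes was not tested. Rrm2, the small subunit of ribonucleotide reductase, read 11.99, 12.36 and 12.42 at day 0, 11.80, 12.03 and 11.57 at day 2 and 11.85, 11.74 and 11.94 at day 5 in the control arm. It was lower at day 2 by -0.46 ± 0.12 and at day 5 by -0.41 ± 0.12 (adjusted p = 0.0135 and 0.00943), the first lost without day 0 replicate 2 or 3 or day 2 control replicate 3 and the second without day 0 replicate 3 or day 5 replicate 2. Cdc6 read 8.93, 9.41 and 9.66 at day 0 and 9.86, 9.79 and 9.83 at day 2 with ascorbic acid, a difference of 0.49 ± 0.16 (adjusted p = 0.048) that was lost without any 1 of the 6 arrays except day 0 replicate 3. Gmnn, the inhibitor of Cdt1, was not called in any step.

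**Figure D3:**
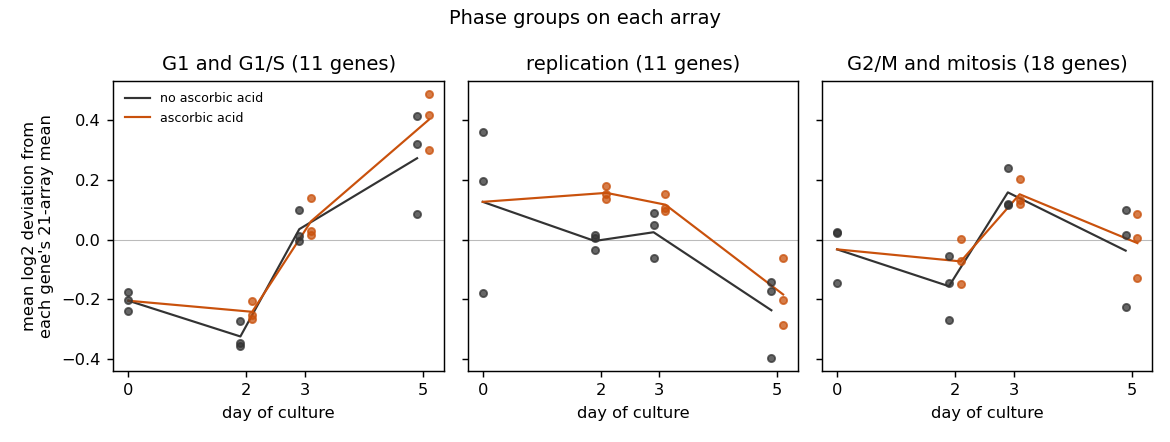
Mean log2 deviation of the measured genes of each phase from their own 21-array means, on each array (points), with group means (lines), without (grey) and with ascorbic acid (orange). The G1 and G1/S mean climbs from -0.32 at day 2 to 0.27 at day 5 in the control arm, the replication mean drops from 0.02 at day 3 to -0.24 at day 5, and the mitotic mean peaks at 0.16 at day 3.

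These phase means summarise the members and are given without a test. The G1 and G1/S mean joins genes that moved apart between days 2 and 5 of the control arm. Ccnd2 went from a mean of 6.98 to 9.94, and Ccne1 from 10.64 to 8.70. That mean also counts the inhibitor genes Cdkn1b and Cdkn2c. The replication mean of the day 0 arrays ran from -0.18 to 0.36, the widest spread of any group, with replicate 1 at the low end.

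The mitotic genes did not move as a block. Between days 2 and 3 in the control arm, 4 of 18 rose and 0 fell, against 4.86% and 0.945% of all genes. The median was 0.32, against -0.03 over all genes. From day 3 to day 5, 3 fell and 1 rose in both arms, with a median of -0.18 without and -0.17 with ascorbic acid. Of all genes, 9.24% fell and 9.08% rose without ascorbic acid, and 8.92% and 9.21% with it. Cdk1, the kinase of mitosis, read 10.47, 10.81 and 10.85 at day 0, 10.92, 10.48 and 11.04 at day 2, 11.21, 11.13 and 11.22 at day 3 and 10.85, 11.11 and 11.21 at day 5 in the control arm. With ascorbic acid it read 11.07, 10.85 and 11.25, then 10.98, 11.16 and 11.20, then 10.99, 10.98 and 11.30. Day 3 control lay above day 0 and day 2, but Cdk1 was not called in any step, its largest step being 0.37 ± 0.15 to day 3 (limma adjusted p = 0.152). Ccna2 (cyclin A2) was nearest to a call from day 3 to day 5, at -0.41 ± 0.15 (adjusted p = 0.0575), while its other probe set differed by 0.06. Plk1, Cdc20, Bub1, Top2a and Birc5 were not called in any step.

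Mki67 rose at both later steps after a dip at day 2. It read 10.06, 10.36 and 10.48 at day 0, 9.98, 9.61 and 9.62 at day 2, 10.62, 10.63 and 10.40 at day 3 and 10.84, 11.09 and 11.07 at day 5 without ascorbic acid. With it the arrays read 9.96, 9.87 and 9.59, then 10.56, 10.74 and 10.46, and a day 5 mean of 11.03 ± 0.03 (SD, n = 3). No neighbouring days overlapped in either arm. The control steps were -0.56 ± 0.13, 0.81 ± 0.13 and 0.45 ± 0.13 (limma adjusted p = 0.00886, 0.00179 and 0.0221), and with ascorbic acid -0.49 ± 0.13, 0.78 ± 0.13 and 0.44 ± 0.13 (adjusted p = 0.017, 0.0025 and 0.0254). The middle step was called in both arms whichever array was left out. The dip was lost without day 0 replicate 3 in the control arm, and without day 0 replicate 2 or 3 or day 2 replicate 3 with ascorbic acid. The last step was lost without day 3 replicate 3 or day 5 replicate 2 or 3 in the control arm, and without day 3 replicate 1 or 3 or any 1 day 5 array with ascorbic acid. Its RNA thus stood 0.70 ± 0.13 higher at day 5 than at day 0 (adjusted p = 0.000379), while Mcm2, Mcm3, Mcm5 and Mcm7 were called lower over that interval.

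Cenpf and Cenpe, genes of kinetochore proteins, and Ccnb2 also rose from day 2 to day 3 without ascorbic acid. Cenpf went from 9.46, 9.26 and 9.31 to 10.00, 10.08 and 10.07, a rise of 0.71 ± 0.13 (limma adjusted p = 0.00374), and with ascorbic acid from 9.56, 9.43 and 9.46 to 9.97, 10.20 and 9.96, a rise of 0.56 ± 0.13 (adjusted p = 0.0163). No arrays overlapped between these days, and the second call was lost without day 2 replicate 2 or 3 or day 3 replicate 2. Its other probe sets were in the same direction and not called. Ccnb2 was lowest on the day 2 control arrays, below every array of the other groups: it read 10.21, 10.48 and 10.44 at day 0, 9.77, 9.36 and 9.69 at day 2 and 10.32, 10.45 and 9.96 at day 3. It fell by 0.77 ± 0.16 and rose by 0.64 ± 0.16 (adjusted p = 0.00372 and 0.0237), the rise lost without day 2 control replicate 2 or day 3 control replicate 1 or 2. Cenpe rose by 0.47 ± 0.13 (adjusted p = 0.0425), a call lost without day 2 control replicate 2 or 3 or day 3 control replicate 1 or 2. In the ascorbic acid arm Cdc25b, a phosphatase that activates Cdk1, read 7.43, 7.81 and 7.54 at day 0, was low on 1 day 2 array (7.20, 7.25 and 6.64) and stood at 7.63, 7.47 and 7.68 at day 3. It differed by -0.56 ± 0.16 to day 2 and by 0.56 ± 0.16 to day 3 (adjusted p = 0.0228 and 0.0487), the first lost without day 0 replicate 2 or day 2 replicate 3 and the second without any 1 of its arrays except day 2 replicate 2.

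Mad2l1, Aurka and Bub1b fell into day 5. Mad2l1, the gene of the spindle checkpoint protein Mad2, read 10.99, 10.81 and 10.76 at day 0, 11.52, 11.18 and 11.66 at day 2, 11.34, 11.34 and 11.61 at day 3 and 10.74, 10.90 and 10.97 at day 5 without ascorbic acid. It thus stood high at days 2 and 3 and was back near its day 0 level at day 5. It rose to day 2 by 0.60 ± 0.13 and fell to day 5 by 0.56 ± 0.13 (limma adjusted p = 0.00509 and 0.00442), and with ascorbic acid by 0.66 ± 0.13 and 0.46 ± 0.13 (adjusted p = 0.00216 and 0.0184), the last lost without day 3 replicate 3 or day 5 replicate 1 or 2. Aurka, the kinase of spindle poles, read 9.77, 10.01 and 10.07 at day 0, 9.62, 9.79 and 9.91 at day 3 and 9.30, 9.32 and 9.20 at day 5 in the control arm. These day 5 arrays lay below all earlier control arrays, at -0.50 ± 0.12 from day 3 and -0.68 ± 0.12 from day 0 (adjusted p = 0.00644 and 0.00024). With ascorbic acid the step was -0.38 ± 0.12 (adjusted p = 0.0349), lost without day 3 replicate 2 or 3 or day 5 replicate 1 or 3. Its other probe set is dim, at a mean of 5.16, and was not called. Bub1b, a checkpoint kinase gene, read 10.22, 10.32 and 10.49 at day 0, 10.04, 10.31 and 10.03 at day 3 and 9.65, 9.88 and 9.57 at day 5. It differed by -0.43 ± 0.13 (adjusted p = 0.0226), lost without day 3 control replicate 2 or day 5 control replicate 1 or 3, and by -0.42 ± 0.13 with ascorbic acid (adjusted p = 0.0237), lost without day 3 replicate 1 or 2 or day 5 replicate 1 or 3. With the mean of all probe sets of a gene, the Aurka and Bub1b calls of this step were lost in both arms, as were the Aurka call from day 0 to day 5, the Mcm5 call with ascorbic acid and the Cenpf call between days 2 and 3 with it.

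Between days 0 and 5 in the control arm, 3 of 18 mitotic genes rose and 3 fell, shares near the 15.9% and 14% of all genes. Beside Mki67, Cdc25c rose by 0.50 ± 0.17, from 7.14, 7.02 and 7.17 to 7.46, 7.77 and 7.60, and Aurkb, the kinase of the chromosomal passenger complex, from 8.90, 8.70 and 8.35 to 8.82, 9.09 and 9.27, by 0.41 ± 0.14 (limma adjusted p = 0.0287 and 0.0345). Beside Aurka, Bub1b fell by 0.64 ± 0.13 and Espl1, the gene of separase, by 0.55 ± 0.18 (adjusted p = 0.00053 and 0.0264), the latter from 9.37, 10.01 and 9.95 to 8.95, 9.24 and 9.48 with overlap. The Mki67, Aurka and Bub1b calls held whichever array was left out, and the others were each lost without some arrays: Cdc25c without day 0 replicate 2 or day 5 replicate 2 or 3, Aurkb without any 1 of day 0 replicates 2 and 3 and day 5 replicates 2 and 3, and Espl1 without any 1 of day 0 replicates 2 and 3 and day 5 replicates 1 and 2.

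The step from day 3 to day 5 can be compared between arms that share no array. The arms are not independent, however, since same-numbered arrays of a day deviated together (r of 0.178 to 0.679 across all genes). All 12 members called in the control arm were also called, in the same direction, with ascorbic acid, which is 100% of the control calls and 92.3% of the 13 calls with ascorbic acid, against 78% and 78.9% over all genes. The sign was the same for 39 of 40 members, and across these genes, which are not independent replicates, the steps had a Pearson r of 0.975. The largest difference between the arms was 0.44, for Ccne1, and rests on the probe set used, since the other steps by -1.52 and -1.54. From day 2 to day 3, 5 members were called in both arms (Ccnd2, Ccne1, Cdkn1b, Mki67 and Cenpf), or 55.6% and 83.3% of the calls of each arm, against 49.1% and 60.8% over all genes, with 34 of 40 signs the same and r of 0.902.

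**Figure D4:**
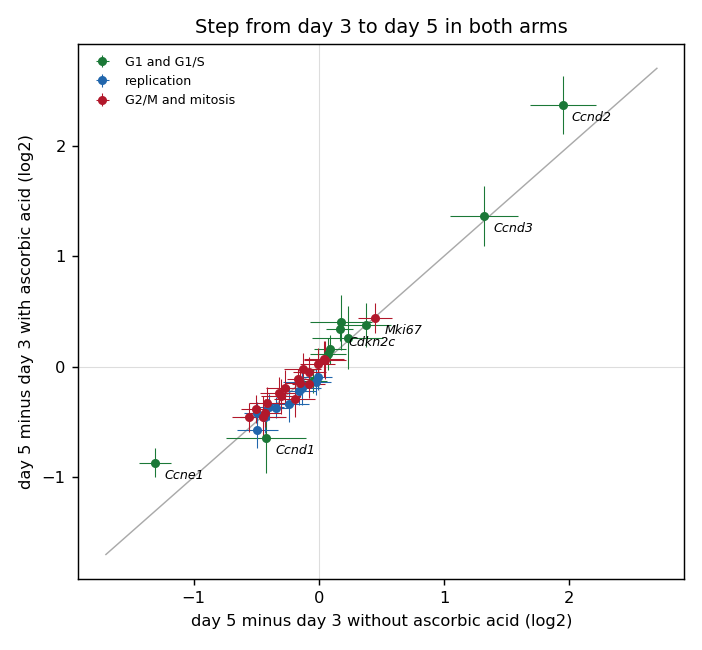
Difference between day 5 and day 3 (log2) for each of 40 members without ascorbic acid (horizontal) and with it (vertical), coloured by phase, with standard errors from limma as bars and the line of equal steps in grey. Ccnd2 and Ccnd3 lie far up the line, Ccne1 lies above it at -1.31 and -0.87, and the replication genes lie below 0 on both axes.

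Genes that mark cell identity moved with these steps, and their part in the result was not tested. In the control arm 6 of 8 pluripotency markers fell and 1 rose between days 3 and 5, and their mean level went from 9.53 to 9.60 on the day 3 arrays to 6.52 to 6.94 at day 5. Of 10 mesoderm, blood and endothelial markers 7 rose (array means of 6.12 to 6.49, then 8.18 to 8.72), of 8 extraembryonic endoderm markers 6 rose (6.44 to 6.64, then 7.71 to 8.21) and of 6 fibroblast markers 4 rose (6.67 to 6.80, then 7.46 to 8.32). The log2 scale of the array has no zero, so no marker can be called absent.

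The counts also depended on single arrays. The shares of all genes called in these refits are not given, so the counts show no trait of the members. Without day 0 replicate 1, 18 members were called from day 0 to day 2 in the control arm in place of 8, and without replicate 2 or 3 only 5. From day 2 to day 3 the control count of 9 became 3 when day 2 replicate 2 was left out, 4 for day 2 replicate 3, 3 for day 3 replicate 1 and 2 for day 3 replicate 2. The control count of 12 from day 3 to day 5 became 7 without day 5 replicate 1. With ascorbic acid the 9 calls to day 2 became 4 without day 0 replicate 2 or day 2 replicate 3, the 6 calls to day 3 became 2 without day 2 replicate 3 or day 3 replicate 2 and 3 without day 3 replicate 1, and the 13 calls to day 5 became 6 without day 3 replicate 3 or day 5 replicate 1 and 7 without day 5 replicate 2.

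The wider cell cycle lists gave the other genes of the same pathways. Of 22 other E2F, pocket protein and inhibitor genes, 3 rose and 2 fell between days 3 and 5 in the control arm, near the 9.08% and 9.24% of all genes. Cdkn1c, the inhibitor p57, rose by 2.85, or 7.23-fold (limma adjusted p = 4.79e-07), after a rise of 1.16 to day 2 and a return of -1.14 to day 3 (adjusted p = 0.0114 and 0.0236). Ccng2, an atypical cyclin G gene, rose by 1.65 (adjusted p = 0.00199) and E2f5 by 0.65 (adjusted p = 0.0164), while E2f8, a repressor E2F, fell by 0.84 and Tfdp1, a partner of the E2Fs, by 0.42 (adjusted p = 0.00139 and 0.0119). At day 2, Rbl1 and Rbl2, the pocket proteins p107 and p130, were lower than at day 0 by -1.09 and -0.99 (adjusted p = 0.00124 and 0.00193).

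Of 26 other replication genes, 0 rose and 8 fell between days 3 and 5 in the control arm, against 9.24% of all genes called lower, with a median of -0.38 (-0.24 over the 11 replication members). The largest falls were in Orc2, of the origin recognition complex, at -0.92 (limma adjusted p = 0.00872), Dut, which removes dUTP, at -0.87 (adjusted p = 0.000158), and Rpa2, which binds single-stranded DNA, at -0.67 (adjusted p = 0.00901). With ascorbic acid 8 fell and 0 rose at this step too. Of 30 other G2 and mitosis genes, 0 rose and 4 fell between days 3 and 5 in the control arm, against 9.08% and 9.24% of all genes. The falls were led by Fbxo5, the inhibitor Emi1, at -0.60 (limma adjusted p = 0.0168). Over the whole course from day 0 to day 5, 4 of these 30 rose and 6 fell in the control arm, against 15.9% and 14% of all genes. The 4 that rose are not named here. Mybl2, the gene of B-Myb, fell by 2.52 over that course, or 5.72-fold (limma adjusted p = 2.95e-07), and Ect2, a cytokinesis gene, by 1.05 (adjusted p = 4.04e-06).

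No member passed the threshold for ascorbic acid in the unpaired fit. limma called 0 of 40 at day 2 (0.0055% of all genes called in either direction), 0 at day 3 (0%), 0 at day 5 (0.0605%) and 0 in the average over the days (0.0275%), with 4, 1, 1 and 4 members at an unadjusted p under 0.05. Differences ran from -0.27 (Ccnd2) to 0.53 (Ccnd1) at day 2, from -0.17 (Bub1) to 0.29 (Rrm2) at day 3 and from -0.10 (Cdkn1b) to 0.58 (Ccne1) at day 5. Their 95% intervals stayed within a 2-fold change for 39, 40 and 40 members, the widest being that of Ccnd1 at day 2 with an upper bound of 1.19. The average count was 1 without day 2 control replicate 3.

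Arrays with the same day and replicate number deviated together across the arms in 9 of 9 pairs, so the pairs were also used as blocks. The labels name no pairing, so the pairs were inferred from the same values that the paired fit then tests. The paired fit called 3 members higher at day 2, against 2.11% of all genes, 0 at day 3, against 0.0934%, 1 at day 5, against 0.78%, and 4 in the average, against 1.45%, and called none lower. At an unadjusted p under 0.05 it held 15, 4, 3 and 10 members. A difference of the effect between days was called for 0 members in either fit, where 0.0055% of all genes were called unpaired and 0.511% paired, and 0 and 6 members had an unadjusted p under 0.05.

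Ccne1 was higher with ascorbic acid at day 5, by 0.73, 0.40 and 0.62 in the 3 pairs. The treated arrays, at 9.25 to 9.30, all lay above the control arrays, at 8.56 to 8.85. The difference was 0.58 ± 0.11, or 1.5-fold, in the paired fit (limma adjusted p = 0.0111) and had an adjusted p of 0.156 unpaired. The gene's other probe set differed by 0.34, 0.35 and 0.33 at days 2, 3 and 5, and in a paired limma fit over every probe set, chosen after seeing the data, it was not called at day 5 (adjusted p = 0.523). The day 5 call and the higher value at day 5 than on the other days thus rest on 1 probe set. Averaged over the days the difference was 0.32 ± 0.06 (limma paired adjusted p = 0.01, unpaired 0.206), positive in 8 of 9 pairs, and 0.34 ± 0.08 by the other probe set (adjusted p = 0.0361 over every probe set). The day 5 count of 1 became 0 without the pair of replicate 1 or of replicate 3.

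The other paired calls were in replication and mitosis genes and were smaller. Cdc6 was higher at day 2 by 0.45, 0.41 and 0.23 in the pairs, a mean of 0.36 ± 0.09 (limma paired adjusted p = 0.0473, unpaired 0.665), with treated arrays at 9.79 to 9.86 and control arrays at 9.38 to 9.60. Pcna was higher by 0.17, 0.45 and 0.18, a mean of 0.27 ± 0.06 (paired adjusted p = 0.0377, unpaired 0.665), with overlapping groups. Ccnb2 was higher by 0.49, 0.55 and 0.36, a mean of 0.47 ± 0.08 (paired adjusted p = 0.0044, unpaired 0.58), and its treated arrays of 9.91 to 10.26 did not overlap the control arrays of 9.36 to 9.77. The Actb 3' minus 5' difference was 1.22, 1.40 and 0.94 on the day 2 control arrays and 0.91, 1.08 and 0.91 on the treated ones, and its part in these results was not tested. At days 3 and 5 the Ccnb2 difference was 0.03 ± 0.08 and 0.05 ± 0.08. The day 2 count of 3 became 0 without the pair of replicate 1 and 6 without that of replicate 3.

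When adjusted over every probe set, the paired Cdc6 call at day 2 was lost (limma adjusted p = 0.0655) and so was that of Ccnb2 on average (0.079), while Rrm2 was called on average by each of its 3 probe sets. In the average over the days, Cdc6 was higher by 0.24 ± 0.05 (limma paired adjusted p = 0.0235, unpaired 0.807) and Rrm2 by 0.25 ± 0.05 (paired 0.0106, unpaired 0.349), each in 8 of 9 pairs, and Ccnb2 by 0.18 ± 0.05 (paired 0.0494, unpaired 0.998) in 7 of 9. Rrm2 differed by 0.25, 0.29 and 0.20 at days 2, 3 and 5. Its other probe sets differed by 0.47, 0.26 and 0.25, and by 0.60, 0.12 and 0.25, on those days. The even size over the days thus rests on the probe set used. In the paired fit over every probe set both others were called at day 2 (limma adjusted p = 0.0286 and 0.00472). The average count of 4 became 0 without the day 3 pair of replicate 1, 1 without the day 2 pair of replicate 1, and 2 without the day 3 pair of replicate 2 or 3 or the day 5 pair of replicate 1 or 3.

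**Figure D5:**
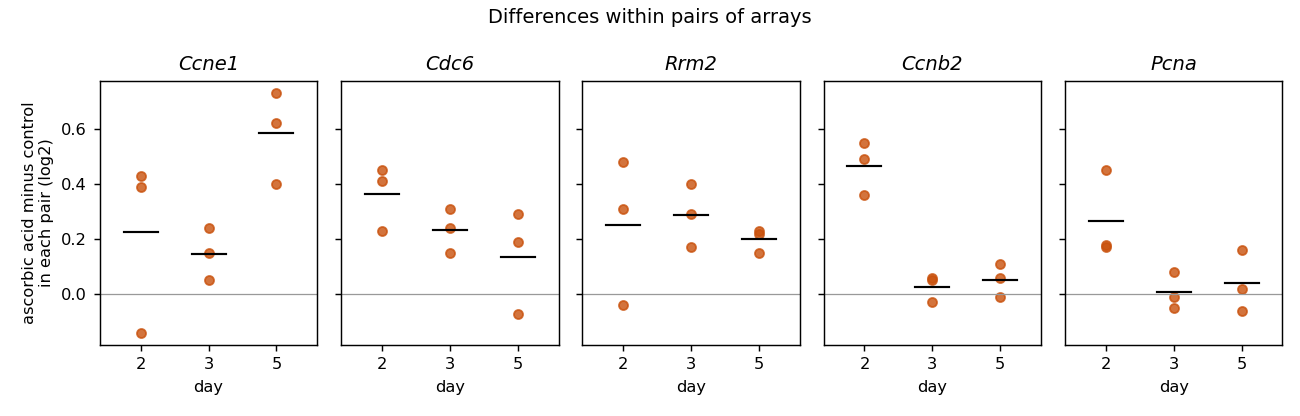
Ascorbic acid minus control within each pair of arrays of the same day and number (points, log2) and their mean (bars) for 5 members at days 2, 3 and 5. By the brightest probe set of each gene, Ccne1 is highest at day 5, Ccnb2, Cdc6 and Pcna at day 2, and Rrm2 lies near 0.20 to 0.29 on average on each day.

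At day 2 the difference was above 0 for 31 of 40 members and 26 of 26 other replication genes, against 8584 of all 18194 genes. The medians were 0.09 and 0.26 against -0.01 over all genes. Genes read on the same arrays are not independent replicates. The part of the Actb 3' minus 5' differences of the day 2 arrays in these counts was not tested. Of the 26 other replication genes, the paired fit called 6 higher, against 2.11% of all genes, with the largest differences in Tk1, Rfc3 and Uhrf1 at 0.62, 0.62 and 0.41. The unpaired fit called 0, with 7 at an unadjusted p under 0.05. At day 3 the median of the other replication genes was 0.03, and at day 5 it was 0.01. Pttg1, the gene of securin and no member, differed by more than any member: ascorbic acid minus control was 1.23, 1.13 and 1.36 at days 2, 3 and 5, with limma adjusted p of 0.164, 0.393 and 0.0236 unpaired and 3.79e-07, 1.36e-06 and 7.79e-08 paired, and it was higher in 9 of 9 pairs.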

How the data were processed

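The authors deposited log2 signals of 45101 probe sets on 21 arrays, made with RMA per the submitters' processing notes (version not given in the sources used here). RMA corrects background, normalises by quantiles and summarises probes. Of the probe sets, 34958 had 1 gene symbol, 932 several and 9211 none. Arrays give no read depth, and their number limits the precision.

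Each of 18194 genes was read by the brightest of its probe sets over the 21 arrays. limma 3.58.1 in R 4.3.3 (lmFit, eBayes with trend, 7 group means) gave differences, standard errors and Benjamini-Hochberg adjusted p values, called under 0.05. Levels of different genes were not compared. The pairing check correlated deviations from group means of treated and control arrays of one day and number (r of 0.178 to 0.679 in 9 of 9 pairs, threshold 0.1), and the paired fit used 9 blocks over 18 arrays. The fit was tested on simulated data. Promoter letters were searched in Python 3.11.15. Alternatives were other scalings, other probe sets, a filter, other fits and single arrays left out. Values on every array are given for set members and, per comparison, for up to 3 called members per phase group and direction with the largest difference. From the wider lists up to 3 called genes per direction and comparison are named, and Pttg1. Members, lists and the rules were chosen with earlier results of these data known.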

Additional observations from a re-analysis of the deposited data

How the results depend on the processing

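Counts of members called moved by over 1.5 times in these cases. Counts in this section are given without the share of all genes called in each refit. With limma fitted to the arrays of a comparison alone, 0 members were called between days 0 and 2 in the control arm (8 in the fit over all arrays), 2 in the ascorbic acid arm (9), and 8 between days 0 and 5 (17), where fewer arrays estimate the spread. A renewed quantile normalisation left 4 from day 2 to day 3 without ascorbic acid (3 higher, 1 lower). Choosing the probe set of highest variance left 3 from day 2 to day 3 with it. A replicate block over all days gave 14 from day 0 to day 2 with ascorbic acid. Leaving out both day 3 arrays numbered 3, an alternative chosen after seeing the data, left 6 from day 3 to day 5 with it. The replicate block over 9 pairs gave 3, 0, 1 and 4 members for ascorbic acid at days 2, 3 and 5 and on average, against 0 in each without the block.

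With single arrays left out, the counts ran from 5 to 18 (day 0 to 2), 2 to 7 (day 2 to 3), 7 to 11 (day 3 to 5) and 12 to 19 (day 0 to 5) without ascorbic acid, and from 4 to 13, 2 to 5 and 6 to 10 in the 3 steps with it. For ascorbic acid minus control, over both fits, they ran from 0 to 6 at day 2, 0 to 0 at day 3, 0 to 1 at day 5 and 0 to 5 on average. With arrays centred on their medians, 3 members rose and 5 fell between days 3 and 5 in the control arm and 4 rose and 5 fell with ascorbic acid, and no rescaling moved the median of all genes by over 0.1.

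Of 74 gene calls in the 7 steps, 1076 alternative values gave 848 that kept direction and threshold, 228 that kept the direction alone and 0 that reversed; 20 calls, among them Ccnd2, Ccnd3, Ccne1, Mcm5 and Mad2l1 from day 3 to day 5 in the control arm, were kept under each alternative. The causes of these shifts were not tested.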
